A study of Rattus norvegicus with 82 samples.

Results

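The frontal cortex of rats was compared between the treatments labelled ADX and Sham on microarrays. The members were taken from the array titles, and they are 3 ADX and 3 Sham arrays of the 82 arrays in the whole series. The region was read from the code at the end of the title, which is FC for these arrays. The titles of the arrays read as septum (code S) also begin with the words frontal cortex, as do those with the codes DR and LC. Where the opening words and the code differ, the code was used. In each group 1 array was labelled AM (replicate 2) and 2 were labelled PM (replicates 1 and 2). A further 4 frontal cortex arrays, 2 AM and 2 PM, carry the treatment label pADX and serve only as a reference. The titles of 2 more arrays begin with frontal cortex but give no region code or treatment, and these arrays entered no comparison. ADX is the usual abbreviation of adrenalectomy, the surgical removal of the adrenal glands, and Sham that of the control operation. The labels do not spell out either word or the letter p in pADX, and they state neither the strain, age and sex of the animals nor the time since surgery, any hormone replacement or any pooling. Because nothing ties an array to an animal, the p-values below measure the spread between arrays, which may in part be technical.

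The adrenal cortex is the source of circulating corticosterone, the main glucocorticoid of the rat. The hormone enters cells and binds the glucocorticoid receptor, encoded by Nr3c1, or the mineralocorticoid receptor, encoded by Nr3c2. The occupied receptors move to the nucleus and act on genes that carry glucocorticoid response elements, among them Fkbp5, Sgk1, Tsc22d3 and Per1. The frontal cortex is rich in the glucocorticoid receptor and takes part in the feedback by which the hormone restrains the hypothalamic-pituitary-adrenal (HPA) axis.

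All values are log2 signals of the deposited intensities after quantile normalization, on a scale where 4 is the floor, so a difference of 1 is a doubling and no level can be compared between genes. The tissue label was checked against markers, with a mixed outcome. Of 19 measured genes of cortical projection neurons, 9 had a higher mean in the frontal cortex than in any of the other 6 regions. Among them were Fezf2, Tbr1, Cux2, Emx1, Nrgn and Slc17a7, the last nearly level with amygdala (9.84 against 9.77). The rest were highest elsewhere, such as Neurod6 (10.63 in hippocampus, 9.82 in frontal cortex) and Bcl11b (10.26 and 8.90). Of the 31042 probe sets tested, 27.5% of the values in the 10 frontal cortex arrays lay at the floor. All 10 arrays were deposited at the same trimmed mean of 150, and the ratio of 3′ to 5′ signal ran from 1.07 to 1.19 for GAPDH and from 2.73 to 3.93 for actin. These measures went with the groups: the deposited median intensity was 51.4 to 56.2 in ADX and 44.7 to 50.6 in Sham, and the share of values under the floor was 23.1% to 26.5% in ADX and 26.9% to 30.1% in Sham, both without overlap. The actin ratio was higher in ADX than in the Sham array of the same label in 3 of 3. Their part in the results was not tested. A pair of Sham arrays stood apart from the rest. The first principal component held 40.9% of the variance, and on it Sham AM replicate 2 scored 37.4 and Sham PM replicate 2 scored 55.7, against -23.7 to 10.4 for the 8 other arrays. In that pair Rbm39, which encodes a splicing factor, measured 5.25 and 5.12, against 6.76 to 7.49 in the others, and the RNA processing genes Sf3b1, Pnisr and Hnrnpu were also low. Ttr, which encodes the thyroid hormone carrier transthyretin of the choroid plexus, measured 7.69 in Sham PM replicate 2 and 4.40 to 5.58 in the 9 other arrays. Since 2 of the 3 Sham arrays are concerned, results are given below also with both left out, which leaves 1 Sham array.

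**Figure D1:**
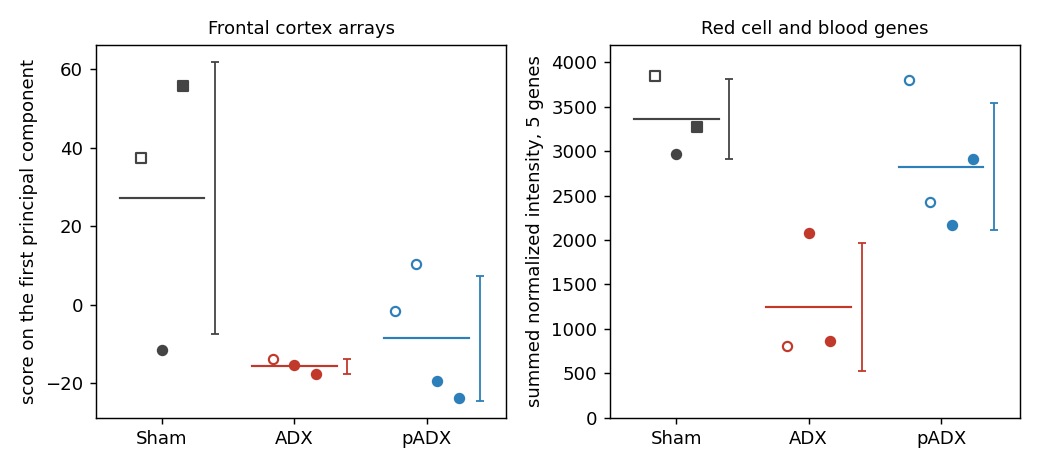
Score of each frontal cortex array on the first principal component (left, no unit) and the summed normalized linear intensity of 5 red cell and blood genes (right), by treatment. Open symbols are AM and filled symbols PM arrays, squares are the pair of Sham arrays that stand apart, horizontal lines are group means and vertical bars are 1 SD; on the left both squares, at 37.4 and 55.7, lie above every other array, and on the right the ADX arrays, at 808 to 2074, lie below every other array.

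The first question the labels pose is what ADX did to gene expression in the frontal cortex. Paqr8, which encodes a membrane progestin receptor, fell by 0.66 on the log2 scale, and Acot13, which encodes an acyl-CoA thioesterase, fell by 0.32. Sult1a1, a phenol sulfotransferase gene, was 3.15-fold lower and Htra1, a secreted serine protease gene, 2.25-fold lower, but neither passed among all probe sets. In limma's moderated test with Benjamini-Hochberg adjustment, 5 of 31042 probe sets passed an adjusted p of 0.05, which is 0.0161%. Of these 3 rose (0.00966%) and 2 fell (0.00644%), while 3809 had an unadjusted p under 0.05. With arrays scaled to one median 3 rose and 11 fell, and as deposited 1 rose and 5 fell. All 3 that rose in the first fit were at the floor in the 3 Sham arrays, and the ADX arrays reached no more than 4.42; they are Rhox5, a homeobox gene, with a difference of at least 0.35, and 2 probe sets without a gene symbol. When the dimmer 40% of probe sets were left out, 12 of 18625 passed, which is 0.0644%: 2 rose and 10 fell. Paqr8 was among them and Acot13 was not. Counts moved with single arrays. Without Sham PM replicate 1, 770 passed, 527 higher and 243 lower, and without both Sham arrays that stand apart 293 (0.944%) passed, 12 higher and 281 lower, of which 274 had an array at the floor. The other single arrays that moved the count by over 1.5 times were Sham PM replicate 2 (25 passed when it was left out), Sham AM replicate 2 (12), ADX AM replicate 2 (20), ADX PM replicate 1 (11), ADX PM replicate 2 (13), pADX AM replicate 1 (3) and pADX PM replicate 1 (3).

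Paqr8 measured 9.16, 9.28 and 9.38 in Sham AM replicate 2, PM replicate 1 and PM replicate 2, and 8.53, 8.67 and 8.64 in the ADX arrays of the same labels. The highest ADX array lay below the lowest Sham array, and the pADX arrays, at 9.06, 9.01, 9.07 and 9.16, lay above all ADX arrays. The difference of -0.66 (SE 0.04) had a limma adjusted p of 0.0114. It passed in 20 of 24 alternative settings, with adjusted p from 0.0071 to 0.322, and was not lost when any single array was left out. The gene has 4 probe sets, and all were lower in ADX, by -1.03 to -0.57. Acot13 measured 7.93, 7.81 and 7.79 in Sham and 7.54, 7.51 and 7.50 in ADX, again without overlap, and 7.85, 7.82, 7.78 and 7.78 in pADX. Its difference of -0.32 (SE 0.03) had a limma adjusted p of 0.0416. It passed in 8 of 24 alternatives, with adjusted p from 0.0124 to 0.805. Acot13 did not pass when the dimmer probe sets were left out, with a limma adjusted p of 0.154. Paqr8 still passed there, with a limma adjusted p of 0.0188 and an SE of 0.089 in place of 0.04. Both genes kept their size without the pair of Sham arrays that stand apart, at -0.63 and -0.30.

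The other 10 of the 12 genes named as lower did not pass among all probe sets, with limma adjusted p from 0.052 to 0.109. They were named for the largest moderated statistic among probe sets whose ADX and Sham arrays did not overlap, so the absence of overlap is not a finding for them. Over all probe sets, the 3 ADX arrays lay below the 3 Sham arrays in 8.0% and above them in 5.34%. Sult1a1, whose product adds sulfate to phenols and catecholamines, measured 7.57, 8.22 and 7.79 in Sham and 6.06, 6.42 and 6.15 in ADX, while the pADX arrays lay at 7.60, 7.45, 7.32 and 7.73. Its difference was -1.65 (SE 0.17), the largest of the 12. Htra1 measured 9.24, 9.01 and 9.14 in Sham and 7.91, 8.15 and 7.82 in ADX, a difference of -1.17 (SE 0.11), and 8.90, 8.88, 8.70 and 8.96 in pADX. In both genes every pADX array was nearer to the Sham mean than to the ADX mean. Ybx3 encodes a nucleic acid binding protein of the Y-box family. It measured 7.12, 6.86 and 7.17 in Sham, 5.94, 5.94 and 5.76 in ADX and 6.43, 6.62, 6.63 and 6.41 in pADX, where the pADX arrays lay between the other groups. Cables1, whose product links Cdk5 to Abl kinase, showed the same order, with 8.01, 8.31 and 8.37 in Sham, 7.17, 7.19 and 7.24 in ADX and 7.80, 7.91, 7.87 and 7.68 in pADX. Lrrc8a encodes an obligatory subunit of the volume-regulated anion channel. It measured 9.29, 9.06 and 9.25 in Sham, 8.59, 8.30 and 8.18 in ADX and 8.67, 8.82, 8.46 and 8.51 in pADX, so that here 3 of the 4 pADX arrays were nearer to the ADX mean; of its other probe sets 1 was lower by -0.54 and 1 higher by 0.41. These 5 genes passed once the dimmer 40% of probe sets were left out, with limma adjusted p of 0.0023 for Sult1a1, 0.0023 for Htra1, 0.0133 for Ybx3, 0.00923 for Cables1 and 0.00923 for Lrrc8a. Over the alternatives their adjusted p ran from 0.0023 up to 0.466, 0.0023 to 0.513, 0.0118 to 0.509, 0.00923 to 0.393 and 0.00923 to 0.486.

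The remaining genes of the group differed less. Specc1 was tight in Sham, at 7.67, 7.66 and 7.67, and lay at 7.28, 7.13 and 7.21 in ADX and 7.37, 7.17, 7.19 and 7.18 in pADX, so ADX and pADX overlapped. Ndufb11, a subunit of mitochondrial complex I, had a difference of -0.52 (SE 0.06). Tmem248, Slc66a2 and Atxn1l differed by -0.46, -0.45 and -0.40. Of Atxn1l, an ataxin-1 related gene, the other 2 probe sets differed by -0.09 each, and another probe set of Tmem248 was higher by 0.18. Across the 12 genes the pADX mean lay between the Sham and the ADX mean in every case, and ADX less pADX ran from -1.35 to -0.01. The genes were chosen for a clear gap between ADX and Sham, so the place of pADX between them is not a finding. Without the pair of Sham arrays that stand apart the 12 differences ran from -1.98 to -0.30.

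**Figure D2:**
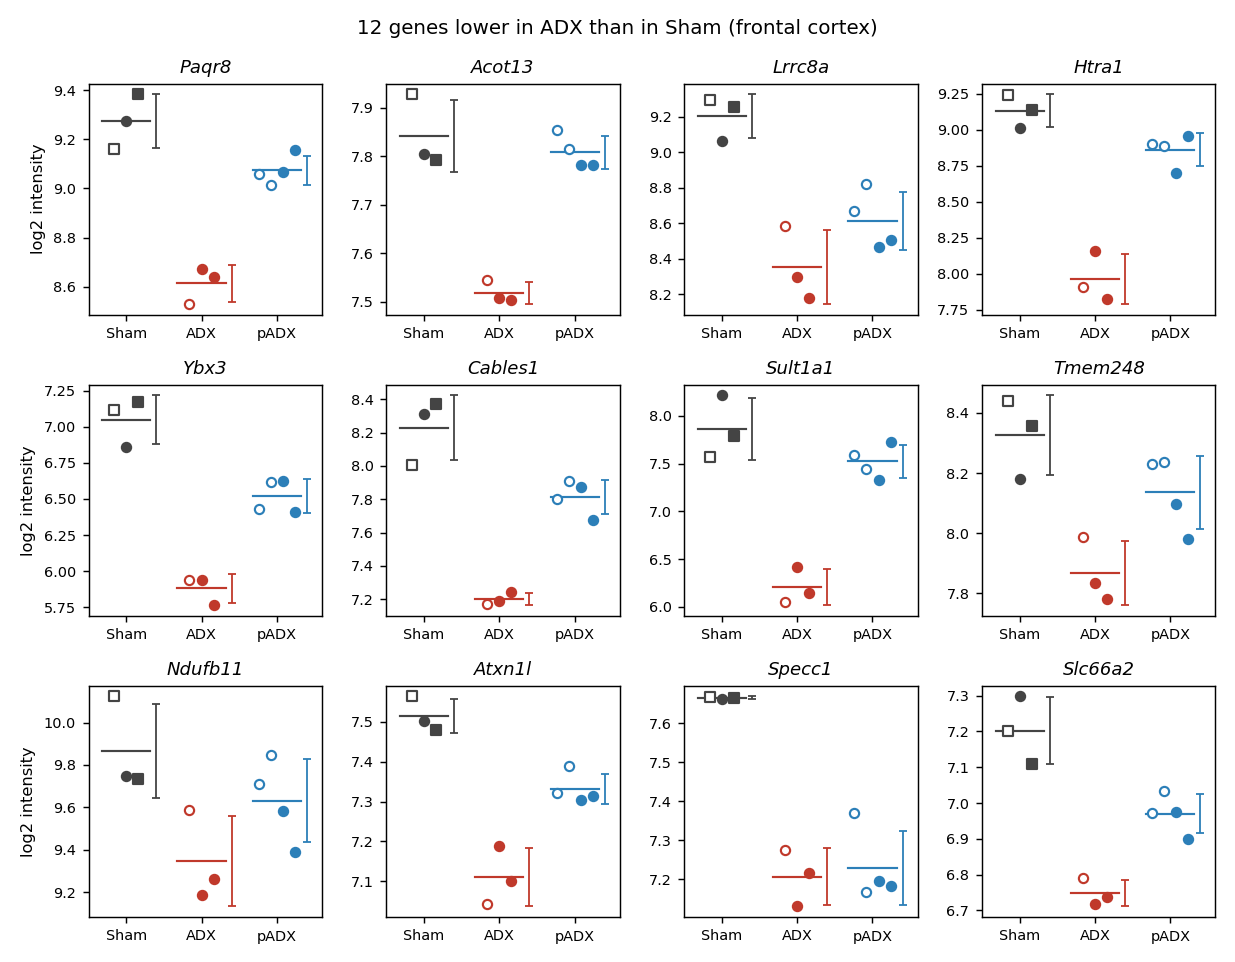
Log2 intensity of the 12 genes named as lower in ADX, by treatment, in the 3 Sham, 3 ADX and 4 pADX frontal cortex arrays. Open symbols are AM and filled symbols PM arrays, and squares are the pair of Sham arrays that stand apart. Horizontal lines are means and vertical bars 1 SD, and each panel has its own axis that does not start at 0. The pADX mean lies between the other 2 means in all 12 panels, which the choice of genes for a gap between ADX and Sham favours.

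The 12 genes named as higher were chosen by the same rule, and none passed among all probe sets, with limma adjusted p from 0.0602 to 0.191. Cpeb4, whose product binds cytoplasmic polyadenylation elements, had the largest difference, 0.77 (SE 0.12), with 9.10, 9.48 and 8.98 in Sham, 9.86, 9.97 and 10.06 in ADX and 9.58, 9.59, 9.80 and 9.82 in pADX; its second probe set differed by 0.66. It rose when the dimmer 40% of probe sets were left out, with a limma adjusted p of 0.0358, and over the alternatives the adjusted p ran from 0.0131 to 0.743. Ankrd10 measured 6.78, 7.32 and 7.23 in Sham and 7.44, 7.75 and 7.80 in ADX, a difference of 0.55 (SE 0.05). Sppl2a, an intramembrane protease gene, measured 6.95, 6.99 and 6.91 in Sham and 7.63, 7.73 and 7.70 in ADX; its 3 other probe sets were higher by 0.05 to 0.31. Erbin, a scaffold that binds the receptor kinase Erbb2, measured 6.37, 6.89 and 6.53 in Sham and 7.31, 7.38 and 7.37 in ADX. The axon guidance gene Slit2 differed by 0.48 and the adhesion receptor gene Adgrb3 by 0.42, while Zfp846, Arhgap12, Ahi1 and Dipk2a differed by 0.62, 0.48, 0.44 and 0.36. Hnrnpd, which encodes a protein that binds AU-rich RNA, differed by 0.43 and the ribosomal RNA methyltransferase gene Dimt1 by 0.30; another probe set of Dimt1 was lower by -0.04, and further probe sets of Slit2 and Zfp846 differed by 0.08 and 0.06. In this group ADX less pADX ran from -0.04 to 0.29, against 0.30 to 0.77 for ADX less Sham. The pADX and ADX comparisons share the Sham arrays, including the pair that stand apart. Without that pair the 12 differences ran from 0.32 to 0.72, and most were smaller. Cpeb4 differed by 0.54 in place of 0.77, Erbin by 0.53 in place of 0.76 and Ankrd10 by 0.45 in place of 0.55. Only Zfp846, Arhgap12, Dimt1 and Dipk2a did not shrink.

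**Figure D3:**
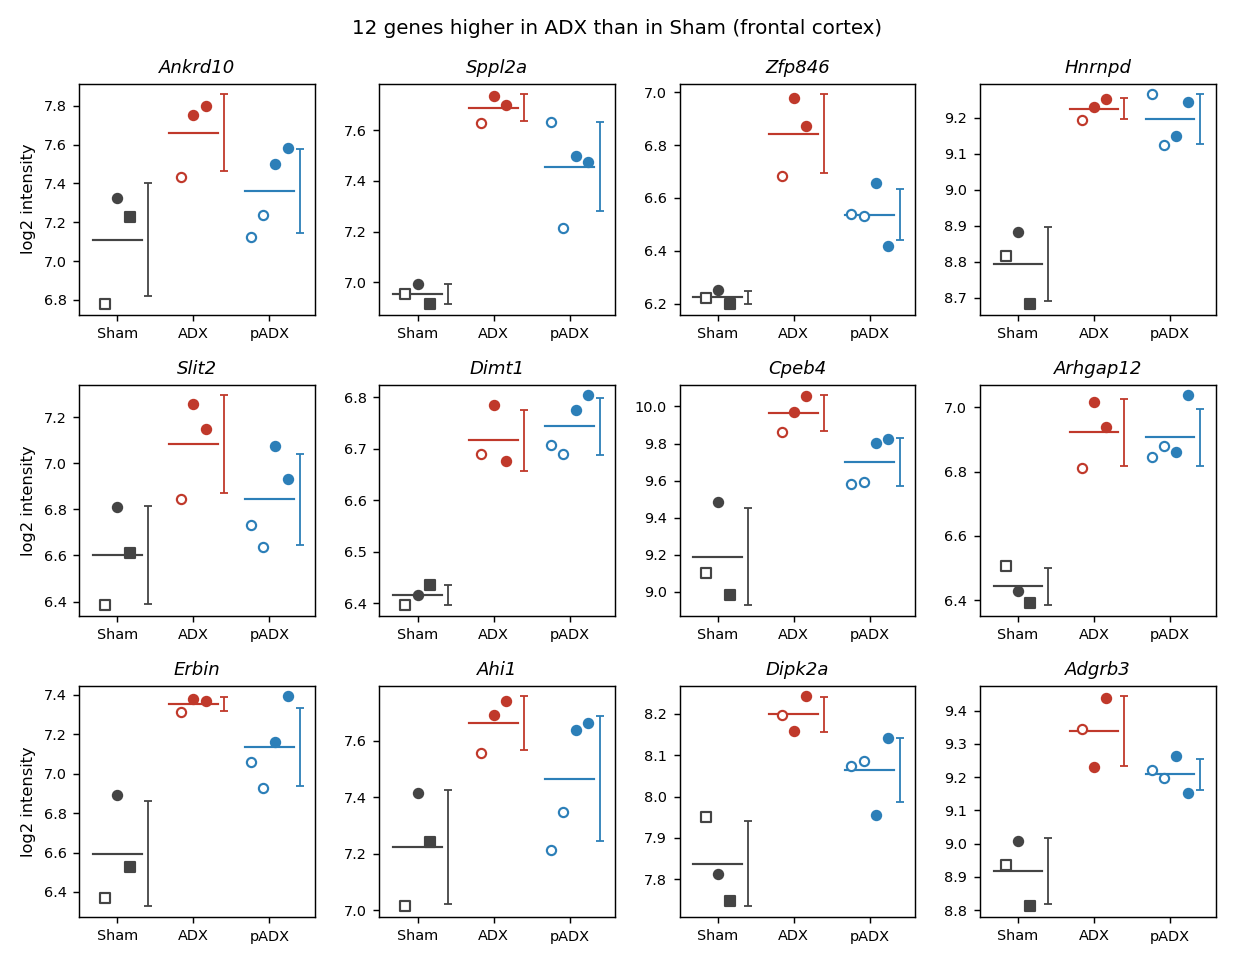
Log2 intensity of the 12 genes named as higher in ADX, drawn as for the lower genes: open symbols AM, filled symbols PM, squares the pair of Sham arrays that stand apart, lines means and bars 1 SD, with an axis of its own in each panel. In the Cpeb4 panel the Sham arrays lie between 8.98 and 9.48, the pADX arrays between 9.58 and 9.82 and the ADX arrays between 9.86 and 10.06.

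Genes known to be induced by glucocorticoids were lower as a group by count, though none of them passed among all probe sets. Of the 45 listed genes 41 were measured; 32 were lower in ADX, 6 were higher and 3 were at the floor throughout. The median difference was -0.44, against 0.00 over all probe sets and -0.04 over the brighter ones. In 17 of the 41 all ADX arrays lay below all Sham arrays, against 8.0% of all probe sets, and in none above, against 5.34%. Of the 18625 brighter probe sets 2174 lay below and 1416 above, which are larger shares. Here and below these are the nearer reference, because a listed gene stands for its brightest probe set. At an unadjusted p under 0.05, 21 were lower and 0 higher, where 6.98% and 5.29% of all probe sets were. With both Sham arrays that stand apart left out, 33 were lower and the median was -0.41. The median of ADX less pADX was -0.22. The list was drawn up from general knowledge of glucocorticoid targets but with earlier results of these arrays known, so it is not independent evidence of its direction.

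Several promoters of the list carry a sequence like the site the receptor binds, and they are printed here so that the genes can be read beside their values. The pattern GNACA, any 3 bases, then TGT, or its reverse complement ACA, any 3 bases, then TGTNC, in which N is any base, was searched on both strands from 250 bases before to 50 after each RefSeq start site of the build GRCr8; the pair of patterns can overlap. It occurred at 6 of 42 start sites of the 35 list members with an entry (14.3%) and at 1056 of 33469 start sites in all (3.16%). The full palindrome AGAACA, any 3 bases, then TGTTCT occurred at 5 start sites in all and at none of the list. Each sequence below is 41 bases, 5′ to 3′ in the direction of the gene, with the match in capitals.
Glul: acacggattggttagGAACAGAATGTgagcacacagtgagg
Plekhf1: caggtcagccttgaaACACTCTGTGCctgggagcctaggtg
Tsc22d3: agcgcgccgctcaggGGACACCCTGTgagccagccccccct
Map3k6: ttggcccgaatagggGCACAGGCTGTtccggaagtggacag
The Glul sequence is at chr13:68519420-68519460 on the plus strand, and its match begins 65 bases before the start site. The Plekhf1 sequence is at chr1:100046941-100046981 on the minus strand, with the match 149 bases before the start. For Tsc22d3 the sequence is at chrX:109065590-109065630 on the minus strand, with the match 185 bases before the start, and for Map3k6 at chr5:150724049-150724089 on the plus strand, with the match 181 bases before the start. Glul, the glutamine synthetase gene of astrocytes, differed by -0.29 and Plekhf1 by -0.67, both without overlap of the ADX and Sham arrays. Tsc22d3, which encodes the anti-inflammatory protein GILZ, differed by -0.35 with overlap, as did the kinase gene Map3k6 by -0.25. Of the other 2 members with a match, Lcn2 was at the floor and Svil differed by -0.21. A match is a description of the letters in the window.

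Among the best known members, Fkbp5, which encodes a co-chaperone of the receptor, measured 7.34, 7.47 and 7.61 in Sham and 6.67, 6.21 and 6.50 in ADX, without overlap, and 6.89, 6.84, 6.88 and 6.65 in pADX. Its difference of -1.01 (SE 0.13) had a limma adjusted p of 0.137 and passed at 0.0358 with the dimmer 40% left out, where the range over the alternatives was 0.0358 to 0.588. Sgk1, the serum and glucocorticoid regulated kinase gene, measured 8.46, 8.65 and 8.33 in Sham and 8.04, 7.73 and 7.98 in ADX; the difference was -0.57 (SE 0.11). Gpd1, the cytosolic glycerol-3-phosphate dehydrogenase gene, had a wide Sham group, 7.41, 7.93 and 8.62, above ADX at 6.70, 6.92 and 6.87. Per1, a clock gene with a glucocorticoid response element, measured 6.35, 6.82 and 7.13 in Sham and 6.04, 4.54 and 6.23 in ADX; ADX PM replicate 1 was far lower than the rest. Ndrg2, an astrocyte gene, was tight in both groups, at 11.75, 11.74 and 11.61 and 11.02, 11.27 and 11.15, and differed by -0.56 (SE 0.09). Mt2A, a metallothionein, measured 8.33, 8.35 and 8.33 in Sham and 7.93, 7.65 and 7.79 in ADX. Sesn1, a stress response gene, measured 7.62, 7.68 and 7.91 and 7.19, 7.26 and 7.28, and the phagocytic receptor gene Mertk 6.76, 7.07 and 6.92 and 6.48, 6.09 and 6.23. None of these 8 genes overlapped between ADX and Sham. A second probe set of Fkbp5 was lower by -0.51, and the other 2 of Glul were lower by -0.87 and -0.72. Without the pair of Sham arrays that stand apart the difference of Glul was -0.15.

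Other classic targets did overlap. Klf9, a transcription factor gene that responds to stress, measured 9.65, 10.06 and 9.79 in Sham and 9.52, 9.68 and 9.55 in ADX; its difference was -0.25 (SE 0.10), and another probe set of the gene, mostly at the floor, was higher by 0.39. Ddit4, an inhibitor of mTOR signalling, measured 7.84, 8.34 and 8.96 in Sham and 7.67, 8.06 and 7.91 in ADX, with Sham AM replicate 2 inside the ADX range. Tsc22d3 measured 8.65, 9.09 and 9.25 and 8.61, 8.70 and 8.64, where the AM arrays of both groups were alike and the PM arrays were not. Without the pair of Sham arrays that stand apart, Klf9 differed by -0.47 and Ddit4 by -0.31; without Sham PM replicate 1 Klf9 differed by -0.15. Among the members higher in ADX, Azin1 had the largest difference, 0.39, which was -0.01 without the pair.

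**Figure D4:**
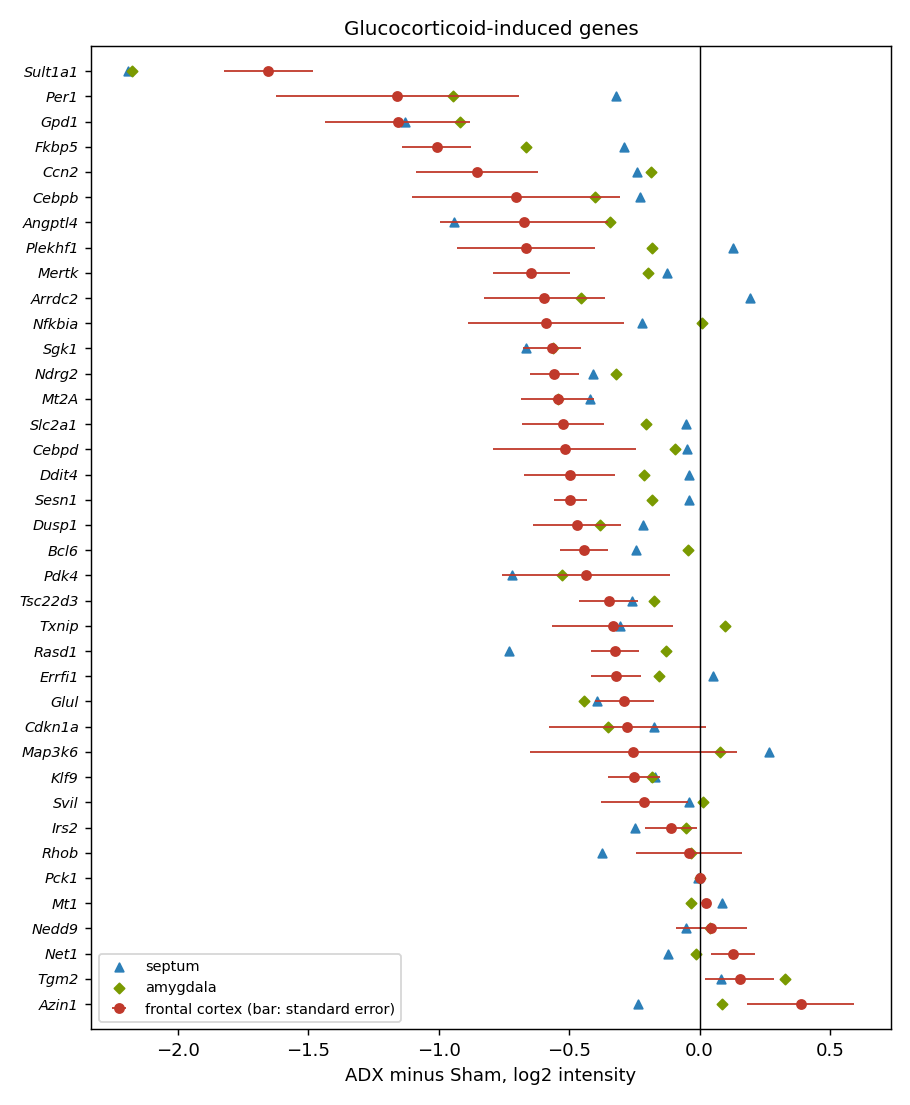
ADX minus Sham in log2 intensity for 38 glucocorticoid-induced genes that were not at the floor in every ADX and Sham array, for the frontal cortex (circles, bars 1 SE), septum (triangles) and amygdala (diamonds). In the frontal cortex 32 genes lie left of 0; Sult1a1 is the lowest in all 3 regions.

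The list of fuel metabolism genes also had many lower members, and it shares Gpd1, Pdk4, Angptl4, Slc2a1 and Ppp1r3c with the glucocorticoid-induced list. It too was drawn up with earlier results of these arrays known, so it is not independent evidence of its direction. Of 38 measured, 34 were lower and 4 higher, and only Paqr8, listed here as a relative of the adiponectin receptors, passed. The median difference was -0.28; it was -0.12 without the pair of Sham arrays that stand apart, so this median moved by more than 1.5 times. Without the pair 30 were lower and 8 higher. In 15 genes the ADX arrays lay below all Sham arrays and in 1 above, where 8.0% and 5.34% of all probe sets did. The lowest after Gpd1 were Phyhd1, with 6.43, 6.66 and 6.35 in Sham and 5.44, 5.46 and 5.50 in ADX, and Prodh, the proline dehydrogenase gene, with 7.45, 7.46 and 7.76 and 6.78, 7.01 and 6.69. Aifm3 differed by -0.70, and Pdk2, which encodes a kinase that restrains pyruvate dehydrogenase, by -0.62. Pygm, the muscle form of glycogen phosphorylase, measured 7.01, 7.02 and 7.12 in Sham and 6.20, 6.42 and 6.52 in ADX; its other 2 probe sets were lower by -1.02 and -1.23, and the latter fell with a limma adjusted p of 0.0358 when the dimmer 40% were left out (0.156 among all probe sets). The glucose transporter gene Slc2a1 measured 8.47, 8.58 and 8.97 in Sham and 8.40, 8.03 and 8.02 in ADX, and the fatty acid oxidation gene Acadl 7.39, 7.37 and 7.29 and 6.88, 6.95 and 6.95. The lactate dehydrogenase genes Ldhb and Ldha differed by -0.10 and -0.18, and the hexokinase gene Hk1 by -0.22. The member with the ADX arrays above Sham was Slc16a7, a monocarboxylate transporter gene, with 6.91, 7.25 and 6.74 and 7.46, 7.67 and 7.65; its difference of 0.63 was 0.37 without the pair.

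The genes of corticosteroid signalling itself showed no common direction, with 8 of 21 higher, 11 lower, 2 at the floor, none passing and a median of -0.02. Without the pair of Sham arrays that stand apart 13 were higher and 5 lower, with a median of 0.05. Nr3c1 measured 8.05, 8.38 and 7.66 in Sham and 8.49, 8.41 and 8.55 in ADX, without overlap, a difference of 0.45 (SE 0.17) with a limma adjusted p of 0.376. Its level in Sham PM replicate 1 was close to the ADX arrays; without the pair of Sham arrays that stand apart the difference was 0.12, and a second probe set was lower by -0.11. Nr3c2 measured 7.76, 7.46 and 7.32 in Sham and 7.47, 7.65 and 7.60 in ADX, and its difference of 0.06 changed sign with the scaling. Ptges3, which encodes the receptor's co-chaperone p23, was higher by 0.28, and by 0.11 without the pair. Hsd11b1, the enzyme gene that regenerates active glucocorticoid in the cell, measured 8.78, 8.67 and 8.18 in Sham and 7.81, 8.35 and 7.97 in ADX, which overlapped.

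Of 20 clock genes 12 were higher and 8 lower, with a median of 0.05 and none passing; without the pair of Sham arrays that stand apart 10 were higher and 10 lower. Only Per1 was without overlap, 1 of the 20 with ADX below Sham, where 8.0% of all probe sets were. Dbp, an output gene of the clock, measured 7.42, 8.21 and 8.39 in Sham and 7.71, 8.13 and 8.33 in ADX, with the AM array lowest in each group, and the difference of 0.05 changed sign with the scaling. Of 22 immediate early genes 15 were lower, with a median of -0.19, and none passed; without the pair 17 were lower. Arc, which marks recent neuronal activity, was likewise lowest in the AM array of each group, with 7.22, 8.52 and 8.69 in Sham and 7.20, 8.18 and 7.51 in ADX. Of the 22 genes 1 had all ADX arrays above all Sham arrays and 1 below, where 5.34% and 8.0% of all probe sets did. The gene above was Jund, a member of the AP-1 transcription factor family. It measured 9.89, 9.75 and 10.18 in Sham and 10.44, 10.48 and 10.45 in ADX, and differed by 0.52 (SE 0.11).

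Transmitter receptor genes gave no call. Of 21 glutamate receptor genes 11 were higher and 10 lower, with a median of 0.09, which was 0.0040 without the pair of Sham arrays that stand apart. Gria2, the AMPA receptor subunit gene, measured 9.60, 10.60 and 9.14 in Sham and 10.71, 10.73 and 10.80 in ADX, and Gria3 measured 9.87, 10.20 and 9.24 and 10.36, 10.55 and 10.49. In both the low values are those of the pair of Sham arrays that stand apart, and without them the differences were 0.19 and 0.36 in place of 0.97 and 0.70. Of 16 genes of GABA receptors and synthesis 8 were higher and 7 lower, with a median of 0.01. Among 29 monoamine and acetylcholine receptor genes 19 were lower, with a median of -0.09. In 2 of the 29, the adrenergic receptor genes Adra2c and Adra2a, the ADX arrays lay below all Sham arrays, where 8.0% of all probe sets did. Adra2c measured 6.0, 5.40 and 5.63 in Sham and 5.32, 5.02 and 4.83 in ADX.

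Of 28 interneuron and neuropeptide genes 20 were lower and 8 higher, with a median of -0.06 and none passing. Without the pair of Sham arrays that stand apart 14 were lower and 14 higher, with a median of -0.0029. In 3 of the 28 the ADX arrays lay below all Sham arrays, where 8.0% of all probe sets and 2174 of the 18625 brighter ones did. This is close to the background share. Npy, the neuropeptide Y gene, measured 9.63, 9.44 and 9.75 in Sham and 9.33, 9.19 and 9.07 in ADX, and Pvalb, the parvalbumin gene of fast-spiking interneurons, 9.41, 9.24 and 9.45 and 8.86, 9.04 and 9.10; these are 2 of the 3. No change of interneurons is read from these 2 genes. In bulk tissue, fewer cells of a type and less RNA per cell could in any case not be told apart. Growth factor genes held 18 lower of 29, with a median of -0.18, which was -0.12 without the pair of Sham arrays that stand apart. In 10 of them the ADX arrays lay below all Sham arrays, where 8.0% of all probe sets did, and none passed. Sfrp1, a secreted Wnt antagonist gene, measured 6.51, 6.75 and 6.98 in Sham and 5.93, 5.83 and 5.73 in ADX. Ntrk2, the receptor gene for BDNF, measured 9.54, 9.56 and 9.61 and 9.08, 9.31 and 9.16, with pADX at 9.18, 9.25, 9.35 and 9.44. Igfbp2 differed by -0.51, whereas Igfbp5 differed by 0.42 with overlap. That value was 0.69 without the pair of Sham arrays, 0.72 without Sham PM replicate 2 and 0.25 without either other Sham array, and its 4 other probe sets differed by 0.00 to 1.40. Nrg1, the neuregulin gene, was higher without overlap, at 4.30, 5.41 and 5.19 and 6.29, 5.71 and 5.82; its difference of 0.97 was 0.43 without the pair, and that of Pvalb moved from -0.37 to -0.20. Of 28 inflammation and immune genes 17 were lower, with a median of -0.10 and none passing.

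**Figure D5:**
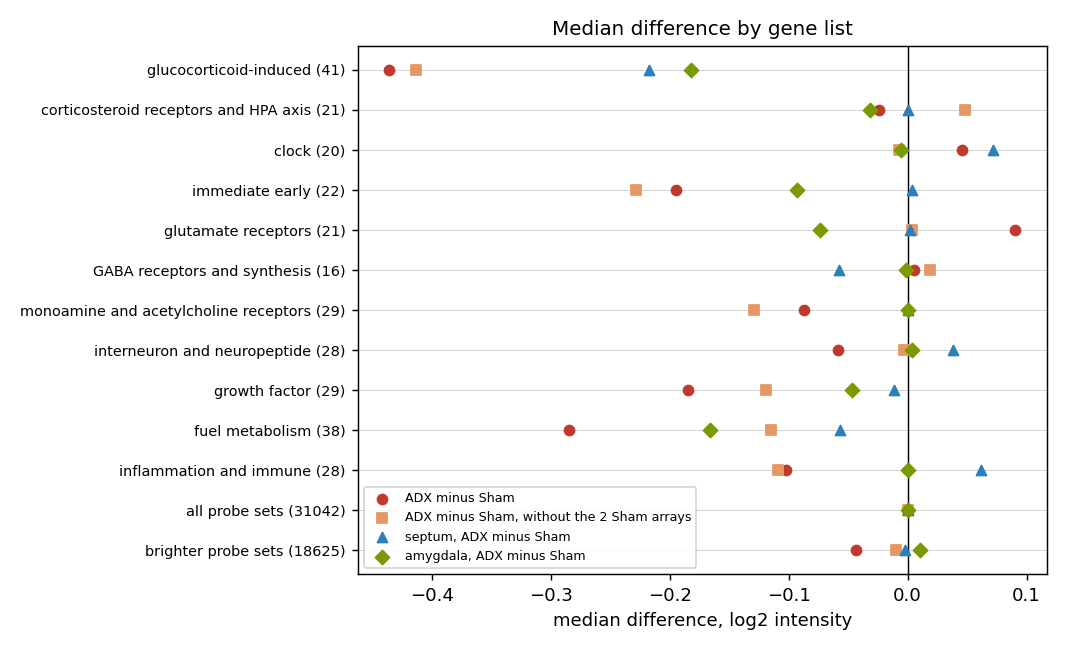
Median difference in log2 intensity of each gene list (number of measured genes in brackets) and of all and the brighter probe sets, for frontal cortex ADX minus Sham with all arrays (circles), the same without the pair of Sham arrays that stand apart (squares), and ADX minus Sham in septum (triangles) and amygdala (diamonds). The glucocorticoid-induced list has the lowest median in the frontal cortex, at -0.44 and -0.41, and the fuel metabolism list moves from -0.28 to -0.12.

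The summed markers of some other cell types did not overlap between ADX and Sham. Of all single probe sets 13.3% did not overlap either, and a sum follows its brightest genes. Red cell and blood genes were lower in ADX: Hbb, a beta globin gene, measured 11.84, 11.46 and 11.61 in Sham, 9.53, 10.95 and 9.61 in ADX and 11.82, 11.18, 11 and 11.44 in pADX, and Alas2, the first enzyme of heme synthesis in red cells, 6.76, 6.31 and 6.40, 4.01, 5.46 and 4.12 and 6.74, 5.85, 5.26 and 6.03. The differences were -1.61 (SE 0.41) and -1.96 (SE 0.50), neither passing, while an alpha globin probe set shared by Hba-a1 and Hba-a2 fell by 1.70 with a limma adjusted p of 0.0495 when the dimmer 40% were left out and did not pass among all probe sets. The summed linear intensity of the 5 measured genes ran from 2964 to 3851 in Sham, 808 to 2074 in ADX and 2165 to 3801 in pADX, without overlap of ADX and Sham. Most of this sum is Hbb. Of the 5 genes 4 were lower and S100a8 was at the floor. The part of blood in the other results was not tested. Astrocyte markers summed to 18940 to 19090 in Sham and 16200 to 17920 in ADX, again without overlap, with 8 of 12 lower and 4 higher. Aldoc, an astrocytic aldolase gene, measured 11.61, 11.47 and 11.68 in Sham and 10.91, 11.07 and 10.89 in ADX, and fell by 0.63 with a limma adjusted p of 0.0191 when the dimmer 40% were left out (0.137 among all probe sets). Gfap, the astrocyte filament gene, was higher, at 9.80, 9.58 and 9.95 and 10.06, 9.99 and 10.13; its difference of 0.28 was 0.51 without the pair. Glul is also an astrocyte marker, and the part of astrocytes in the results for Glul and Ndrg2 was not tested. Oligodendrocyte precursor markers summed to 931 to 1118 in Sham and 758 to 841 in ADX, with 5 of 5 lower. Taken singly, 0 of the 5 were without overlap, and without the pair of Sham arrays that stand apart 3 were lower and 2 higher. Markers of meninges and fibroblasts summed to 1006 to 1168 in Sham and 935 to 1004 in ADX, which nearly touch, and to 915 to 1217 in pADX. Of these 7 genes 6 were lower, and 5 without the pair. The sums of the projection neuron, pan-neuronal, myelin, microglial, endothelial, striatal, thalamic, hippocampal, hypothalamic and olfactory and ependymal lists overlapped between ADX and Sham, and no marker passed. The part of these cells in the results was not tested. Choroid plexus markers summed to 831 in Sham PM replicate 2 and to 467 to 585 in the 9 other arrays, and the part of this tissue in the results was not tested.

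The pADX arrays gave a reference for these values. In limma's moderated test 0 of 31042 probe sets passed between pADX and Sham (0.00%), where 3606 had an unadjusted p under 0.05, and 2 passed between ADX and pADX (0.00644%), both of them probe sets without a symbol that were at the floor in pADX and Sham. Without Sham PM replicate 1, 774 passed between pADX and Sham, and without both Sham arrays that stand apart 285 did. For the glucocorticoid-induced genes the pADX mean lay between Sham and ADX in 28 of 41, and 3 of the 41 were at the floor. The gap between ADX and Sham in this list favours such a place. The share over all probe sets was not counted, so the place of pADX is not a finding here. Sult1a1 differed by -0.31 between pADX and Sham and by -1.35 between ADX and pADX, and for Htra1 the values were -0.28 and -0.89. For Fkbp5 they were -0.67 and -0.34, and for Lrrc8a -0.63 and -0.22, with the larger step on the side of pADX. The 3 comparisons share arrays, so these values are set side by side only.

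Whether the frontal cortex differed from other forebrain regions was tested directly, by the ADX minus Sham difference in the frontal cortex less the mean of the same difference in septum and amygdala, over 34 arrays. In septum alone 7 probe sets passed between ADX and Sham (0.0226%) and in amygdala alone 4 (0.0129%). Paqr8 differed by -0.66 in frontal cortex, -0.68 in septum and -0.71 in amygdala, Htra1 by -1.17, -1.22 and -1.33, and Sult1a1 by -1.65, -2.19 and -2.18. Acot13, which also passed in frontal cortex, differed by -0.32 there, by -0.12 in septum and by 0.21, the other way, in amygdala. Of the 12 lower genes 9 were also lower in septum and 9 in amygdala, and the differences of effect, from -0.69 to 0.53, did not pass, with limma adjusted p of at least 0.106. Among the 12 higher genes 6 were higher in septum and 9 in amygdala, and differences of effect ran from 0.36 to 0.92 with adjusted p of at least 0.0701. Cpeb4 had the largest, being -0.23 in septum and -0.20 in amygdala. Lrrc8a differed by -0.03 and -0.17 there. Both sets of 12 were chosen on their frontal cortex values, so a larger effect there than elsewhere follows in part from the choice. It is not read as a trait of the frontal cortex. Of the glucocorticoid-induced genes 32 were lower in septum and 30 in amygdala, 25 in all 3 regions; the medians were -0.22 and -0.18, and no member's difference of effect passed, with adjusted p of at least 0.239. A probe set without a gene symbol, singled out after its values were seen, rose in frontal cortex by 1.69 with a limma adjusted p of 0.002 when the dimmer 40% were left out, but did not pass among all probe sets. It ran from 6.83 to 7.35 in Sham and 8.59 to 8.92 in ADX, and it was higher by 1.31 in septum and 1.57 in amygdala.

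The test of the difference between regions was passed by 8 of 31042 probe sets (0.0258%), 6 of them with a gene symbol. Cpox, the coproporphyrinogen oxidase gene of heme synthesis, measured 7.12, 7.21 and 6.96 in frontal cortex Sham and 7.44, 7.52 and 7.69 in ADX, while ADX was lower by -0.11 in septum and -0.12 in amygdala; the difference of effect was 0.60 (SE 0.08), with a limma adjusted p of 0.00907. Nat8f5, an acetyltransferase family gene, measured 6.24, 6.62 and 6.70 and 5.91, 5.66 and 4.99, with differences of 0.01 in septum and -0.08 in amygdala and a difference of effect of -1.19 (SE 0.16; limma adjusted p 0.00907). Cpox was well above the floor in all 3 regions. Nat8f5 had no Sham or ADX array at the floor there, but its lowest frontal cortex value, 4.99 in ADX PM replicate 2, was not far above it. The prostaglandin transporter gene Slco2a1 measured 4.98, 5.18 and 5.46 in Sham and 4.0, 4.0 and 4.28 in ADX, with 2 ADX arrays at the floor. It was at the floor in all 16 Sham and ADX arrays of septum and amygdala, where a fall could not be seen. Adprhl1, Smurf1 and Tnfrsf26 were at or near the floor there too, and in frontal cortex 1, 3 and 2 of their 3 ADX arrays were at the floor. For these 4 genes neither the fall in frontal cortex nor its difference from the other regions can be sized; another probe set of Smurf1 differed by -0.09 in frontal cortex, and another of Adprhl1 by -0.88. With the dimmer 40% left out 206 passed, 194 of them upward. The count was 1229 when frontal cortex Sham PM replicate 1 was left out, 15 for Sham AM replicate 2, 21 for Sham PM replicate 2, 22 for ADX PM replicate 2 and 134 for both Sham arrays that stand apart.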

How the data were processed

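Expression was measured on rat microarrays of 31099 probe sets. The authors deposited linear intensity values per probe set, and every frontal cortex array was at one trimmed mean; the labels do not name the software behind this scaling. From these intensities, all 82 arrays were quantile normalized, set to a floor of 16 and converted to log2. The 57 control probe sets were left out. limma 3.58.1 in R 4.3.3 fitted treatment and time of day over 10 frontal cortex arrays (lmFit, eBayes with a trend, Benjamini-Hochberg at 0.05), with 6 residual degrees of freedom. An exact permutation test of 3 against 3 arrays cannot go below p = 0.1, so single values were tested only within this fit. The moderation in this fit added 0.74 prior degrees of freedom with all probe sets and 6.19 with the dimmer ones left out. The contrast with septum and amygdala used 34 arrays with treatment, time and replicate combinations as a block. The block takes arrays of the same label in different regions as matched, which the labels do not state. Without it 113 probe sets passed in place of 8. The number of arrays limits the precision.

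Genes were named from probe sets with 1 symbol (20826 of 31042; 436 had several and 9780 none): those past the threshold with a mean of at least 6 in a group, filled up to 12 in each direction by moderated statistic among probe sets without overlap, and 22 genes whatever they showed. In a list, a gene stands for its brightest probe set. The members and lists were chosen with earlier results of these data known. Promoter sequences came from RefSeq (GRCr8). Alternatives covered scaling, floor, filter, time term, replicate block, array weights and leaving out arrays. The limma steps were tested on simulated data.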

Additional observations from a re-analysis of the deposited data

Results flagged for a closer look

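The effect of ADX in frontal cortex less that in septum and amygdala passed limma's test of the difference itself for 6 probe sets with a gene symbol. It was 0.60 for Cpox and -1.19 for Nat8f5. The fitted values for Slco2a1 (-1.11), Adprhl1 (-0.97), Smurf1 (-0.59) and Tnfrsf26 (-0.41) are no sizes of a regional difference: these 4 were at or near the floor in septum and amygdala, and in frontal cortex 2, 1, 3 and 2 of the 3 ADX arrays were at the floor.

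Among the 4 pADX arrays, 1 array lay far from the other 3 for 6 of 43 named genes (14%), where chance gives about 5%. In pADX AM replicate 1 these were Specc1 at 7.37, Mt2A at 7.87, Nr3c2 at 7.82 and Pygm at 6.84. Prodh measured 7.22 in pADX AM replicate 2, and Dbp measured 8.37 in pADX PM replicate 1.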

How the results depend on the processing

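Of 43 named genes, 41 kept their direction under every alternative run (up to 24). Nr3c2 turned to -0.082 with median scaling, -0.038 with array weights, -0.0035 without ADX PM replicate 1 and -0.018 without Sham PM replicate 2, in a range of -0.018 to 0.196 leaving out 1 array. Dbp turned to -0.093 with median scaling, -0.070 with PM arrays only, -0.0023 without ADX PM replicate 2, -0.121 without Sham AM replicate 2, and -0.032 without both Sham arrays that stand apart, with or without the filter, in a range of -0.121 to 0.167 leaving out 1 array. Leaving out those arrays was chosen after seeing the data.

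Of 31042 probe sets, 5 passed between ADX and Sham. The count was 14 with median scaling (3 higher, 11 lower), 2 with a floor of 32, 12 without the dimmer 40%, 0 with only the arrays of both groups (2238 at an unadjusted p under 0.05), 13 without the time term, 18 with PM arrays only, 14 with array weights, 3 to 770 leaving out 1 array (770 is 527 higher, 243 lower), and 293 without both Sham arrays (12 higher, 281 lower). Between pADX and Sham, 0 became 1 as deposited, 3 with a floor of 32, 2 with only the arrays of both groups, 13 with PM arrays only, 6 with array weights, 0 to 774 leaving out 1 array (17 without Sham PM replicate 2) and 285 without both Sham arrays. Between ADX and pADX, 2 became 0 with median scaling or a floor of 32, 4 without the time term, 18 with PM arrays only, 7 with array weights and 2 to 16 leaving out 1 array (16, 7 and 13 without ADX AM replicate 2, PM replicate 1 and PM replicate 2). For the contrast with septum and amygdala, 8 became 3 as deposited, 206 without the dimmer 40%, 113 with no replicate block, 2074 against all 6 other regions, 8 to 1229 leaving out 1 array and 134 without both Sham arrays. The cause of these moves was not tested.

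No pairing of the frontal cortex arrays by replicate number was seen: replicate 1 less replicate 2 correlated at -0.09 to 0.19 over 6 pairs of groups. Sham AM and ADX AM, with 1 array each, could not enter, and pairing across regions was not tested. With the replicate block, 2 passed between ADX and Sham, both higher; Paqr8 and Acot13 did not pass, with limma adjusted p of 0.0702 and 0.116 (ranges over the alternatives 0.0071 to 0.322 and 0.0124 to 0.805). With the block 0 passed between pADX and Sham and 2 between ADX and pADX.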
